A study of Homo sapiens with 13 samples.

Results

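The comparison described here sets the chromatin occupied by TCF7L2 against that occupied by LEF1 in Nalm6 cells after a glucocorticoid. Nalm6 is an established human line of B-cell acute lymphoblastic leukaemia, and all libraries come from this one line. The members are the 6 peak lists of prednisolone-treated cells, 3 with an antibody to LEF1 and 3 with an antibody to TCF7L2 (labelled TCF4TCF7L2), out of 12 lists and 13 samples in the series. The treated cells had 24 h of prednisolone, a glucocorticoid drug, at 5 µM. The control cells, used only where stated, had no prednisolone; the labels give them no treatment in one field and a vehicle in a protocol. Both groups were grown in medium with charcoal-stripped serum, and the replicates are described as independent experiments. The IgG sample was not analysed here, so no list was set against a non-specific antibody. Occupancy was measured by CUT&RUN, in which an antibody tethers a nuclease to chromatin and the fragments cut free are sequenced.

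LEF1 and TCF7L2 are sister transcription factors with an HMG-box DNA-binding domain, and both recognise the same short Wnt-response motif. They are the DNA-bound end of canonical Wnt signalling: with beta-catenin they activate transcription, and without it they can recruit corepressors of the Groucho/TLE family. LEF1 is known for its part in the growth of early B-cell progenitors, and TCF7L2 for its part in intestinal and metabolic tissues. Glucocorticoids act through the glucocorticoid receptor, itself a transcription factor, and kill many lymphoid leukaemia cells. The series' title sets these pathways against each other, and the question taken up here is which loci both factors, or only one of them, held in treated cells.

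The deposited lists were long. They held 240296, 389025 and 128863 LEF1 peaks and 317316, 395786 and 144091 TCF7L2 peaks in replicates 1, 2 and 3. Read totals were not used here, so the depth is known only through the lists. To keep list length from setting the overlap, the 20000 peaks with the highest −log10 p-value were taken from each list and are called top peaks. These top peaks differed in kind between the antibodies. The median width was 1379, 1243 and 1138 bp for LEF1 and 460, 505 and 405 bp for TCF7L2. At the last of these peaks the −log10 q-value was 5.49 to 6.62 for LEF1 and 0.390 to 0.614 for TCF7L2, so the weak end of the TCF7L2 lists had q-values above 0.05. The libraries also fell into sets by the length of their shortest peak. It was 193 bp in LEF1 replicate 1 and 165 bp in LEF1 replicates 2 and 3, and it was 164 bp in TCF7L2 replicate 1 and 196 and 201 bp in TCF7L2 replicates 2 and 3. By this length LEF1 replicates 2 and 3 form a set with TCF7L2 replicate 1, and LEF1 replicate 1 forms one with TCF7L2 replicates 2 and 3. Replicate 1 of each antibody thus stood apart from its group, and values within the sets are given beside the tests.

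Top peaks that overlapped by at least 1 bp in any of the 6 libraries were merged into 66848 regions. All 3 LEF1 libraries had a top peak in 11511 of them and all 3 TCF7L2 libraries in 2855. Both conditions were met by 1305 regions, 1.95% of all regions, which are called regions of both factors. A top peak in all 3 LEF1 libraries and in no TCF7L2 library was found in 5484 regions (8.2%), called LEF1 only. The reverse pattern was found in 1056 regions (1.58%), called TCF7L2 only. The shares were thus lopsided, since the same 1305 regions are set against 2855 TCF7L2 and 11511 LEF1 regions. Regions of both factors made up 45.7% of the TCF7L2 regions (95% Clopper-Pearson interval 43.9 to 47.6%) but 11.3% of the LEF1 regions (10.8 to 11.9%). These intervals cover counting error only. The sizes depended on the choice of peaks. With 5000 top peaks per list the shares were closer, at 21.7% of TCF7L2 regions and 12.6% of LEF1 regions. With peaks that reached a −log10 q-value of 2 they were 51.8% and 2.37%. The remaining 4722 LEF1 regions (41.0%) had a top peak in 1 or 2 TCF7L2 libraries, and the remaining 494 TCF7L2 regions (17.3%) had one in 1 or 2 LEF1 libraries.

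**Figure D1:**
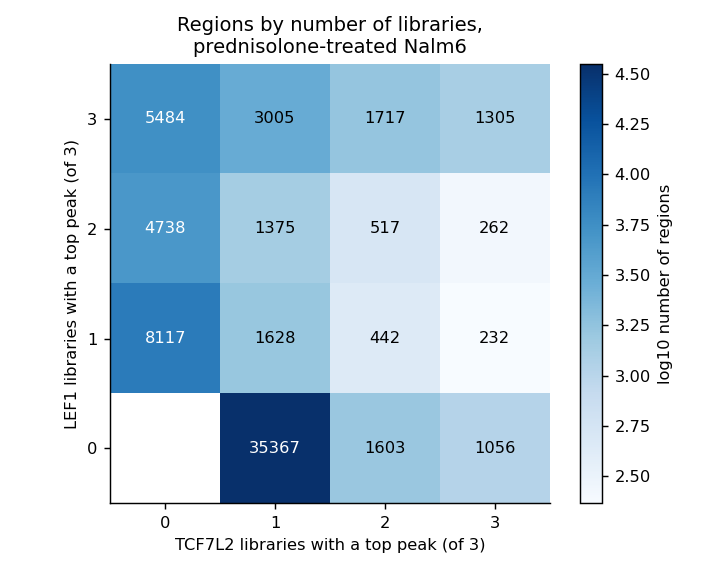
Number of merged regions by how many of the 3 LEF1 libraries (vertical axis) and of the 3 TCF7L2 libraries (horizontal axis) had a top peak in them, with shading on a log10 scale. The upper right cell holds the 1305 regions of both factors, the upper left cell the 5484 LEF1-only regions and the lower right cell the 1056 TCF7L2-only regions, while 35367 regions had a top peak in a single TCF7L2 library and nowhere else.

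The grid of region counts also shows how often top peaks recurred across the libraries of each antibody. A single TCF7L2 library and no other library accounted for 35367 regions, and a single LEF1 library alone for 8117. The fixed list length reached weaker peaks for TCF7L2, with a last −log10 q-value of 0.390 to 0.614 against 5.49 to 6.62 for LEF1. These counts therefore cannot separate how well an antibody repeated from where its list was cut. Leaving out single libraries moved some of the counts by over 1.5 times. A region then had to meet its class only in the remaining libraries, a looser rule, and every count rose whichever library was left out. The rise is thus partly set by the rule and is no measure of how well an antibody repeated. Without TCF7L2 replicate 2 the regions of both factors numbered 2013, and without TCF7L2 replicate 3 they numbered 1964. TCF7L2-only regions rose in number to 1779 without TCF7L2 replicate 3.

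At most of the best-ranked regions of both factors the LEF1 peak was wider than the TCF7L2 peak, with the summits close together. Column 7 of the lists, the authors' fold of the peak over the background modelled by MACS2, is given as the strength of a peak and is compared only within a list. Coordinates are on hg19, the build in the submitters' processing notes. No hg19 annotation was used here, so the regions carry no gene or promoter names. Regions are named for the best worst rank over the libraries that hold them, among the 892 regions of both factors, the 5299 LEF1-only regions and the 557 TCF7L2-only regions whose column 7 was at least 3 in each such library.

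At chr9:33175052-33179737 the LEF1 peaks ranked 99, 118 and 131 in their lists, with folds of 21.7, 25.1 and 19.9. The TCF7L2 peaks there ranked 214, 164 and 156, with folds of 28.1, 29.1 and 27.4. All 6 libraries had a strong peak at this locus, and the summits of the factors lay 24 to 279 bp apart over the 9 pairs of a LEF1 and a TCF7L2 library. At chr3:72306828-72309978 the LEF1 peaks ranked 49, 11 and 8 and were 2946, 2055 and 1725 bp wide. The TCF7L2 peaks ranked 227, 217 and 242 and were 1156, 1123 and 1258 bp wide. Here the TCF7L2 peak was the narrower one in every replicate, and its summit lay 12 to 64 bp from that of LEF1. A further 4 loci of this class also had close summits. The median distance over pairs was 47 bp at chr11:353684-356421, where LEF1 ranked 11, 19 and 12. It was 27 bp at chr12:120101932-120105582, 17 bp at chr4:42634393-42647648 and 13 bp at chr1:230499172-230500874. The chr4 region was also the longest of the class, at 13256 bp, with LEF1 peaks of 10186, 8174 and 12951 bp around TCF7L2 peaks of 2008, 2127 and 1404 bp.

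At the remaining named loci of this class the summits were farther apart. At chr17:63552386-63558628 the median distance was 369 bp, and TCF7L2 ranked 51, 102 and 264. At chr9:140343070-140347259 LEF1 ranked 5, 5 and 2, with summits at 140345934, 140345924 and 140345936. The TCF7L2 summits were at 140345085, 140345898 and 140345087, so that replicate 2 placed TCF7L2 beside LEF1 and replicates 1 and 3 placed it more than 800 bp away. TCF7L2 ranked 276, 451 and 446 there in the treated lists and 37, 22 and 27 in the control lists, values that are given side by side with no test.

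LEF1 peaks were wider than TCF7L2 peaks where both factors were found. Median widths at the 1305 regions were 2029, 1879 and 1759 bp for LEF1 (1889 ± 135, SD, n = 3) and 870, 854 and 879 bp for TCF7L2 (868 ± 12.7, n = 3). Every LEF1 library lay above every TCF7L2 library, and the difference of the mean log2 medians was 1.12, or 2.17-fold. The exact permutation test over the 6 libraries gave p = 0.1, two-sided, the smallest that 3 against 3 allows. Within the sets by shortest peak the log2 difference was 1.06 (LEF1 2 and 3 against TCF7L2 1) and 1.23 (LEF1 1 against TCF7L2 2 and 3). Region by region the LEF1 peak was the wider one in 90.9%, 89.2% and 87.4% of regions in same-numbered libraries. When peaks had to reach a −log10 q-value of 2, the log2 difference was 0.46.

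**Figure D2:**
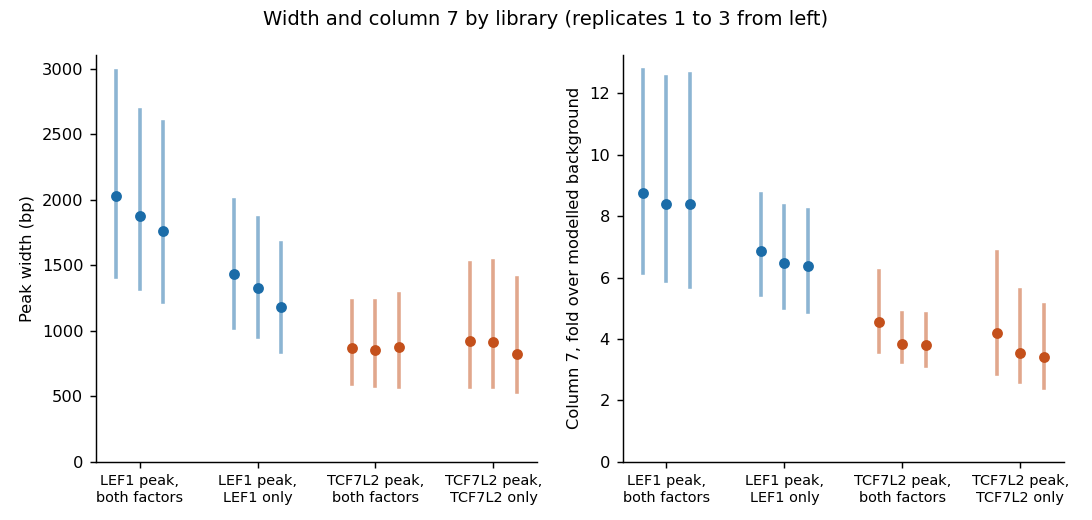
Median (points) and quartiles (lines) of peak width in bp (left) and of column 7, the fold over modelled background (right), for LEF1 peaks (blue) and TCF7L2 peaks (orange) in each class, with replicates 1 to 3 from left to right. LEF1 peaks were wider and stronger at regions of both factors (medians 1759 to 2029 bp) than at LEF1-only regions (1185 to 1432.5 bp), while the TCF7L2 classes had similar medians and a wider spread where no LEF1 library had a top peak.

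Within the LEF1 lists, regions shared with TCF7L2 held the stronger and broader peaks. Median column 7 was 8.76, 8.38 and 8.39 at regions of both factors and 6.88, 6.46 and 6.38 at LEF1-only regions. The log2 ratio was 0.35, 0.38 and 0.39 in replicates 1, 2 and 3 (mean 0.37 ± 0.022, SD, n = 3), so the shared regions were stronger in 3 of 3 libraries. Widths differed the same way, with LEF1-only medians of 1432.5, 1327 and 1185 bp and log2 ratios of 0.50, 0.50 and 0.57. Peaks of at least 2000 bp were 45.5% ± 5.19 of the LEF1 peaks at regions of both factors and 20.3% ± 4.90 at LEF1-only regions (n = 3). The classes were drawn by rank and overlap from these same lists, so the ratios describe the classes and carry no test. A wider peak more readily overlaps another, which by itself favours wide LEF1 peaks at regions of both factors. With 200 bp windows centred on summits the log2 ratio of width was 0.34, against a mean of 0.52 with peaks.

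Within the TCF7L2 lists the medians of the classes were close, but the spread was not. Median column 7 was 4.56, 3.85 and 3.79 at regions of both factors and 4.19, 3.54 and 3.40 at TCF7L2-only regions, a mean log2 ratio of 0.13 ± 0.021 (n = 3). This sign did not hold under other ways of choosing peaks: the log2 ratio was −0.01 with 5000 top peaks per list and −0.35 with the top 20000 by column 7. Widths gave log2 ratios of −0.08, −0.09 and 0.10 and so no common direction. The extremes of strength lay at TCF7L2-only regions. Folds of at least 10 were reached by 15.2% ± 2.27 of the TCF7L2 peaks there, against 4.78% ± 2.04 at regions of both factors. Folds below 2 were found in 13.3% ± 0.571, against 1.28% ± 0.193 (n = 3 each).

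**Figure D3:**
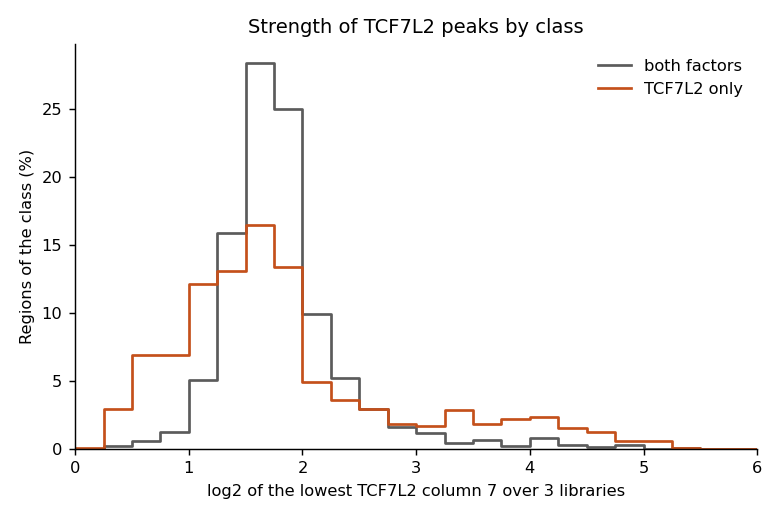
Share of regions (vertical axis, percent of the class) by the log2 of the lowest TCF7L2 column 7 over the 3 libraries (horizontal axis), for the 1305 regions of both factors (grey) and the 1056 TCF7L2-only regions (orange). From 0.75 to 1 lay 73 TCF7L2-only regions and 16 of both factors, and above 3.25 the orange line lies over the grey one.

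Counted by region, the strongest TCF7L2 sites mostly lacked a top LEF1 peak. Of the 199 TCF7L2 regions with column 7 of at least 10 in all 3 libraries, 131 (65.8%) were TCF7L2 only and 36 (18.1%) were regions of both factors. Of the 124 regions below 2 in all 3 libraries, 107 (86.3%) were TCF7L2 only. Between these ends, 1259 of the 2532 others (49.7%) were regions of both factors. LEF1 showed the opposite order. Of the 1080 LEF1 regions at 10 or more in all 3 libraries, 331 (30.6%) were regions of both factors and 222 (20.6%) were LEF1 only, while of the 10431 others 974 (9.34%) were shared and 5262 (50.4%) were LEF1 only.

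The ranks of single peaks showed this in finer steps. In coarse steps, 56.8% of the 1000 best LEF1 peaks and 33.9% of the next 4000 overlapped a top TCF7L2 peak, while for TCF7L2 peaks the shares were 39.7% and 47.4% (means over 9 pairs of libraries). The finer steps that follow were chosen after the data had been seen. Of the LEF1 peaks at ranks 1 to 20, 85.0% overlapped a top TCF7L2 peak (mean over 9 pairs, range 70.0 to 95%). This share went down at every step to 14.5% (12.2 to 19.1%) in the last 10000 ranks. TCF7L2 peaks did not follow that course. Of those at ranks 1 to 20, 24.4% (15.0 to 35.0%) overlapped a top LEF1 peak. The share was 23.2% (18.0 to 26.0%) at ranks 101 to 200, was highest between ranks 1000 and 2000 with 54.0% (50.9 to 57.6%), and was 12.1% (4.53 to 21.9%) in the last 10000 ranks. Against LEF1 peaks of any rank the shares were flatter up to rank 2000 only. They were 77.8% at TCF7L2 ranks 1 to 20, 69.3% at ranks 101 to 200 and 82.9% between ranks 1000 and 2000. In the last 10000 ranks the share against LEF1 peaks of any rank was 32.1% (13.9 to 51.5%), so this course also fell. With top LEF1 peaks the control libraries gave 19.4% and 55.8% for TCF7L2 ranks 1 to 20 and 1000 to 2000 as means over 9 pairs, a course of the same shape.

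**Figure D4:**
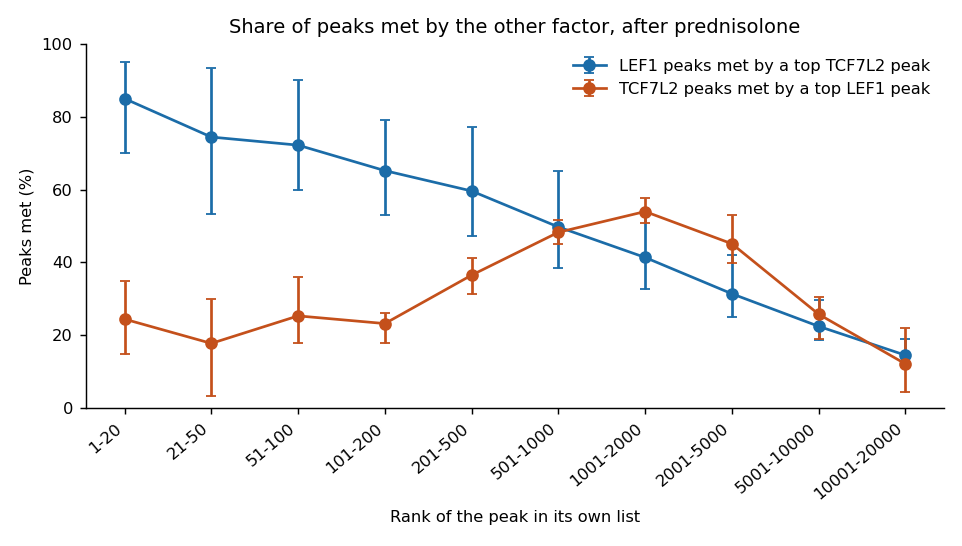
Share of LEF1 peaks that overlapped one of the 20000 top TCF7L2 peaks (blue) and of TCF7L2 peaks that overlapped one of the 20000 top LEF1 peaks (orange), in percent, by the rank of the peak in its own list. Points are means and bars ranges over the 9 pairs of prednisolone libraries: the blue line goes down from 85.0% and the orange line is highest at 54.0%.

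The leading TCF7L2-only regions were broad, very strong peaks at loci where LEF1 was weak or not called. The first was chr7:2391761-2397250, where TCF7L2 ranked 2, 1 and 1 with folds of 59.1, 37.9 and 38.2 and widths of 4025, 4716 and 4608 bp. LEF1 had a peak there in replicate 2 alone, at rank 306285 with a fold of 1.82. At chr5:137672336-137675657 TCF7L2 ranked 1, 3 and 2 with folds of 61.9, 40.7 and 37.5. At chr19:42805267-42810248 it ranked 3, 5 and 6 with folds of 48.6, 26.5 and 26.8. No LEF1 list, treated or control, held any peak at these last loci, although TCF7L2 was among the 6 best peaks of each treated list. At chr1:1622667-1625686, where TCF7L2 ranked 4, 2 and 4, LEF1 peaks lay at ranks 239788, 59024 and 124545. The same held at chr17:17138533-17143909 (TCF7L2 ranks 7, 6 and 7) and chr21:19189539-19193595 (8, 7 and 9), where the best LEF1 ranks were 79809 and 30973. At chr20:2081321-2085144 TCF7L2 ranked 13, 12 and 12, and at chr17:7587980-7592400 it ranked 15, 8 and 5. All 8 loci also ranked 16 or better in each control TCF7L2 list.

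The leading LEF1-only regions stood lower in their lists than the leading TCF7L2-only regions did, except the first. This was chr9:68477138-68478193, where LEF1 ranked 4, 6 and 5 with folds of 26.7, 26.8 and 23.4 and no treated TCF7L2 list held a peak of any rank. At chr15:22386743-22388258 LEF1 ranked 69, 21 and 76 with folds of 11.3, 14.1 and 10.8, and TCF7L2 had only a peak of rank 309225 in replicate 1. LEF1 folds were higher at chr8:30084255-30086265, with 28.6, 37.4 and 34.5, where the TCF7L2 ranks were 52202 and 334833 in replicates 1 and 2 and no peak was called in replicate 3. At chr2:26832162-26834222 LEF1 ranked 117, 89 and 78 and TCF7L2 had a single peak, of rank 239233. At chr12:96335545-96337876 LEF1 ranked 158, 34 and 72. All 3 treated TCF7L2 lists held a weak peak there, at ranks 48253, 91677 and 31363. The remaining named loci were chr1:230526837-230529004, chr13:78051641-78054576 and chr3:111264785-111268491, with LEF1 folds of 13.0 to 22.4. At chr13:78051641-78054576 TCF7L2 had a peak of rank 45157 in treated replicate 1 only. In the control cells 4 of these 8 loci had a top TCF7L2 peak in all 3 lists, namely those on chromosomes 15, 12, 1 and 3, and all 8 had a top LEF1 peak in all 3 lists.

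A missing top peak was often a weaker peak of the other factor. Of the 5484 LEF1-only regions, 867 (15.8%) had a peak in all 3 full TCF7L2 lists and 1281 (23.4%) had one in none. Where a TCF7L2 peak was found its median rank was 135046, 93824.5 and 76190.5 in replicates 1, 2 and 3. Of the 1056 TCF7L2-only regions, 473 (44.8%) had a peak in all 3 full LEF1 lists and 329 (31.2%) had one in none. The median LEF1 ranks there were 75744, 71200 and 54333, with folds of 2.46 to 2.51. These weak LEF1 peaks had median widths of 587.5, 542 and 528 bp. They were narrower than top LEF1 peaks, with medians of 1138 bp or more. They were wider than the medians of the full LEF1 lists, which were 393, 306 and 398 bp.

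The TCF7L2-only regions thus held sites of several kinds. The 131 with column 7 of at least 10 throughout had median folds of 24.2, 18.4 and 17.0 and median widths of 2218, 2286 and 2223 bp. Of them, 130 had a top peak in all 3 control TCF7L2 lists. In treated cells 65 of the 131 (49.6%) had a peak in all 3 full LEF1 lists, and 26 (19.8%) had no LEF1 peak of any rank. The 107 below 2 throughout had median folds of 1.58, 1.59 and 1.60 with median ranks of 1731, 704 and 628. They therefore ranked among the best TCF7L2 peaks by p-value while their folds were among the lowest. Of the 107, 97 had no LEF1 peak in any full list, 17 had a top peak in all 3 control TCF7L2 lists and 43 in none. The 818 others had median folds of 4.10, 3.49 and 3.34, and 525 of them had a top peak in all 3 control TCF7L2 lists. Among these 818, 403 (49.3%) had a peak in all 3 full LEF1 lists of treated cells and 206 (25.2%) in none, shares not far from those of the 131.

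Where both factors were found, their summits lay close together. The median distance between the summits of a LEF1 and a TCF7L2 library was 118 bp (mean over 9 pairs, range 101 to 145 bp). It was 68.3 bp between LEF1 replicates (50 to 94 bp, 3 pairs) and 106 bp between TCF7L2 replicates (94 to 119 bp, 3 pairs). The distance across factors exceeded the mean within factors by 30.7 bp, with a one-sided p of 0.1 by exact permutation of the antibody labels, the smallest of 10 splits. Against TCF7L2 replicates alone the excess was 11.7 bp, and those ranges overlapped. Single libraries moved the excess between 19.5 bp without LEF1 replicate 3 and 47.5 bp without TCF7L2 replicate 1. The exact permutation p was 0.2 without LEF1 replicate 1, and 0.2 with 200 bp windows centred on summits in place of peaks, where the excess was 9.0 bp. For libraries in the same set by shortest peak the mean was 108 bp over 4 pairs across factors (101 to 114 bp) and 72 bp over 2 pairs within a factor (50 and 94 bp). For the 5 pairs across factors from different sets it was 126 bp (111 to 145 bp).

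**Figure D5:**
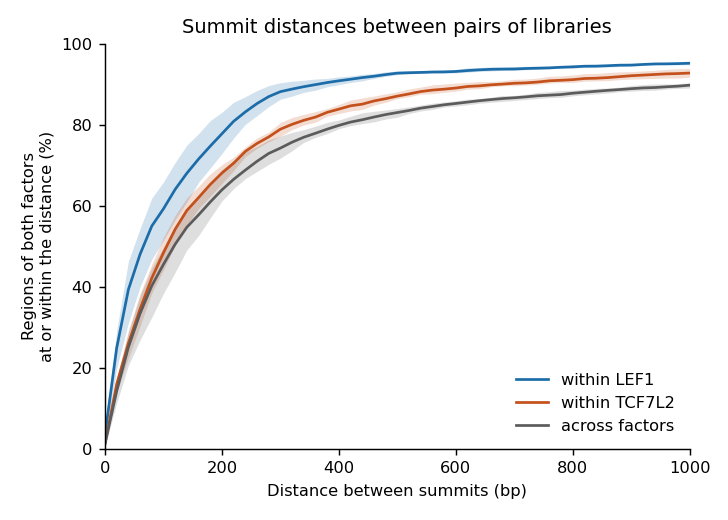
Share of the 1305 regions of both factors (vertical axis, percent) whose summits in a pair of libraries lay at or within the distance on the horizontal axis (bp), as the mean (line) and range (band) over 3 pairs of LEF1 libraries, 3 pairs of TCF7L2 libraries and 9 pairs across factors. At 100 bp the means were 59.3%, 48.4% and 45.6%.

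Within 100 bp lay 45.6% of summit pairs across factors, 59.3% between LEF1 replicates and 48.4% between TCF7L2 replicates. Within 500 bp the shares were 83.1%, 92.8% and 87.1%. The regions were defined by overlapping peaks, and the LEF1 peaks there were mostly the wider ones, which by itself favours TCF7L2 summits inside them. The TCF7L2 summit fell inside the LEF1 peak in 95.3% of regions (94.7 to 96.6% over 9 pairs). Its median distance from the middle of the LEF1 peak was 0.301 of the distance from the middle to the edge, against 0.264 for the LEF1 summit itself. Distances grew with the LEF1 peak. With the regions split by LEF1 width into 3 equal sets of 435, the median across factors was 87.9 bp in the narrowest set, 123 bp in the middle set and 178 bp in the widest set. TCF7L2 replicates showed the same course, with 82.3, 109 and 145 bp, beside 54.7, 78.7 and 79.3 bp between LEF1 replicates.

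The strengths of the factors were only loosely related. Across the 1305 regions the Spearman correlation between mean log2 column 7 of LEF1 and of TCF7L2 was 0.27. For single pairs of libraries it averaged 0.198 (0.0746 to 0.262, 9 pairs), against 0.771 between LEF1 replicates and 0.535 between TCF7L2 replicates. These are descriptions across regions, which share their libraries and the local background and are not independent replicates.

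The share of TCF7L2 peaks that met LEF1 was lower in treated than in control libraries, without passing the test. Of the 20000 top TCF7L2 peaks, 24.0% overlapped a top LEF1 peak after prednisolone (mean over 9 pairs, 19.7 to 31.5%) and 34.6% in control cells (32.5 to 36.1%). Every treated pair lay below every control pair. The difference was −10.6 percentage points, with p = 0.105 in the exact permutation test, two-sided, over 400 relabellings, whose smallest p is 0.005. For pairs in the same set by shortest peak the mean share was 31.3% after prednisolone and 35.0% in control cells in the set with short peaks, and 21.0% and 33.7% in the other set, each over 2 pairs. The difference was thus −3.69 points in the first and −12.7 points in the second. Across treatments, LEF1 lists of treated cells met 34.3% of control TCF7L2 peaks, and LEF1 lists of control cells met 20.4% of treated TCF7L2 peaks. The share thus went mainly with the TCF7L2 list. Relabelling the LEF1 lists alone kept a drop of this kind, so the test had little room to reach its smallest p. Without peaks equal at the limit of the top lists the difference was −6.59 points (p = 0.27), and with full lists it was −1.53 points (p = 0.685), by the same exact permutation test.

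Most regions of each class also had top peaks of their own factor in control cells. Of the 1305 regions of both factors, 656 (50.3%) had a top peak in all 6 control libraries, 943 in all 3 LEF1 controls and 792 in all 3 TCF7L2 controls. Of the LEF1-only regions, 3525 (64.3%) had a top peak in all 3 LEF1 controls and 398 (7.26%) in all 3 TCF7L2 controls. No TCF7L2 control had a top peak in 2885 of them (52.6%). Of the TCF7L2-only regions, 672 (63.6%) had one in all 3 TCF7L2 controls, and 948 (89.8%) had none in any LEF1 control. The full pattern of the class recurred in the controls at 1532 LEF1-only regions (27.9%) and at 602 TCF7L2-only regions (57.0%).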

How the data were processed

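Members and lists were chosen with earlier results of these data known. Peaks were called per sample with MACS2 on hg19, per the submitters' processing notes; version, aligner, control library and filters are not given in the sources used here. The authors deposited start, end and summit of each peak, with its fold ratio over modelled background (column 7) and its −log10 p- and q-values. From these, the 20000 top peaks per list (ties by column 7, q-value, position) were merged with a minimum overlap of 1 bp. Ties at the limit filled 2231 places in TCF7L2 replicate 1 and 7599 in replicate 3, and left out 8385 and 3399 equal peaks. No pair of lists was identical. The best-ranked peak of a library stood for it in each region. The 8 regions named per class have the best worst rank at column 7 of at least 3. Scripts (Python 3.11.15, numpy 2.4.6, pandas 2.3.3, scipy 1.17.1) were tested on simulated lists. The 3 libraries per group limit precision. Planned counts of promoters, motifs and gene lists were not run, since no hg19 sequence or annotation was used here. Alternatives varied list length, strength, ranking, interval, replicates and libraries.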

Additional observations from a re-analysis of the deposited data

How the results depend on the processing

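Of 178 recomputed values, 98 were labelled as kept, 78 moved and 2 reversed, the cause of which was not tested. Values with a test were kept when the direction and the call held. The tests of width and summit distance could not reach the threshold, so their label rested on direction alone. A width difference of 0.46 at the q-value limit and a summit excess of 9.0 bp with windows were thus both labelled as kept. Shares and log2 ratios were kept when they moved by less than the spread of replicates or intervals. Region counts were judged only by their ratio to the main count, with no spread or interval. A count labelled as kept could thus change widely: LEF1-only regions went from 5484 to 7689 without LEF1 replicate 1. Settings are given for regions of both factors, LEF1 only and TCF7L2 only in that order. With 5000 top peaks the first 2 counts were 343 and 1382. Full lists gave 12108, 30258 and 2832. A −log10 q-value of at least 2 gave 716, 25627 and 405. Ranking by column 7 gave 731 regions of both factors and 614 of TCF7L2 only. Windows of 200 bp at summits gave 746 regions of both factors. Peaks in 2 of 3 replicates gave 3801, 10222 and 2659. Absence from the full lists of the other factor, added after the data were seen, gave 1281 LEF1-only and 329 TCF7L2-only regions. Leaving out 1 library, which loosens the rule to the remaining libraries, gave 1375 to 2013, 6089 to 7689 and 1115 to 1779.

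The share of LEF1 regions also held by TCF7L2 was 12.6% with 5000 top peaks, 14.6% with full lists, 2.37% at the q-value limit, 7.78% by column 7, 7.87% with windows and 20.7% with 2 of 3 replicates. The share of TCF7L2 regions also held by LEF1 was 21.7%, 69.9%, 51.8%, 35.4% and 53.3% under these settings, column 7 ranking aside, and 48.5% with column 7 of at least 2, an alternative added later. Leaving out 1 library gave 9.49% to 17.5% and 42.4% to 48.8%.

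The log2 ratio of column 7, regions of both factors over LEF1 only, was 0.29 with 5000 top peaks, 0.67 with full lists, 0.52 by column 7, 0.46 with windows, 0.40 with column 7 of at least 2, 0.49 with strict absence and 0.28 to 0.40 without 1 library. Over TCF7L2 only it reversed to −0.0092 with 5000 top peaks and to −0.35 by column 7, and was 0.22 with full lists, 0.44 at the q-value limit, 0.040 with windows, 0.0029 with column 7 of at least 2, 0.79 with strict absence and 0.093 to 0.18 without 1 library. For width over LEF1 only the values were 0.31 with 5000 top peaks, 1.32 with full lists, 0.65 at the q-value limit, 0.62 by column 7, 0.34 with windows, 0.83 with strict absence and 0.43 to 0.63 without 1 library. For width over TCF7L2 only they were 0.41 with full lists, 0.11 at the q-value limit, −0.52 by column 7, −0.17 with windows, 0.14 with strict absence and −0.034 to 0.13 without 1 library.

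No test passed a threshold of 0.05 under any setting. Those of width and summit distance could not, and that of overlap had little room to in the main setting. Replicate numbers gave no sign of pairing the libraries. The presence of peaks in same-numbered libraries correlated at −0.02, −0.0007 and −0.008, and in the other pairs at −0.0091 to 0.015. Such values cannot decide whether same-numbered libraries came from 1 experiment. In the replicate block, with exchanges within a number only, the exact permutation p was 0.25 for the width difference of 1.12, for the summit excess of 30.7 bp and for the overlap difference of −10.6 points, the smallest the block allows. The overlap difference ranged from −14.1 to −8.53 points without 1 library, and was −4.90 with 5000 top peaks, −4.30 at the q-value limit, −6.67 with windows, −8.84 by column 7, and, added later, −6.59 without peaks equal at the limit and −4.56 with 1000 top TCF7L2 peaks (exact permutation p of 0.09 to 0.685 over all its alternatives). The weakest top TCF7L2 peaks had q-values above 0.05, and the TCF7L2-only regions numbered 1032 with 5000 top peaks.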

Other observations

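The classes were spread differently over the chromosomes and along them. Chromosome 19 held 83 of the 1056 TCF7L2-only regions (7.86%), 44 of the 1305 regions of both factors (3.37%) and 92 of the 5484 LEF1-only regions (1.68%). Of the 131 TCF7L2-only regions with column 7 of at least 10 in all 3 libraries, 16 (12.2%) lay there, more than on any other chromosome. Chromosome X held 5.11% of the TCF7L2-only regions, 1.15% of those of both factors and 1.33% of the LEF1-only regions. Chromosome Y held 3.31%, 0.230% and 0.237% in the same order, and chromosome 16 held 5.21%, 1.92% and 3.06%. Column 7 was below 2 in all 3 libraries at 14 of the 35 TCF7L2-only regions on chromosome Y and 16 of the 55 on chromosome 16. Over all TCF7L2 regions, chromosomes 19, X, Y and 16 held 5.18%, 3.50%, 1.40% and 3.29%. Over all LEF1 regions they held 2.10%, 1.40%, 0.208% and 3.02%. On chromosomes 19, X and Y the regions of the factors as a whole thus differed in the same direction as the classes. None of these shares was tested. Peaks equal in all values at the limit of a list were kept by position, which favours the first chromosomes. Without peaks equal at the limit the TCF7L2-only regions numbered 1050, and their shares by chromosome were not recomputed.

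The 107 TCF7L2-only regions with column 7 below 2 in all 3 libraries were clustered. Of them, 100 (93.5%) lay within 50 kb of another TCF7L2-only region, at a median distance of 0.939 kb. The corresponding share was 35.9% for the 131 strong regions, with a median of 141.2 kb, and 39.4% for the 818 others. Chromosome 10 held 23 of the 107, chromosome 16 held 16, chromosome 4 held 15, chromosome Y held 14 and chromosome 2 held 11. Regions of both factors lay at a median of 320.0 kb from the next region of their class, and LEF1-only regions at 74.7 kb.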
